A study of Mus musculus with 8 samples.

Results

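Myelin and oligodendrocyte transcripts are represented here by 9 genes chosen by name, Mbp, Mog, Mag, Mobp, Cnp, Mal, Cldn11, Opalin and Ermn, among the 56576 genes of the table, and all 9 entered the test. They were measured in the RNA recovered by a ribosome pulldown from neocortical synaptosomes of mice at postnatal day 15. Synaptosomes are the pinched-off synaptic particles of a tissue homogenate. The 4 control libraries came from Lhx6-Cre;Erbb4+/+;Rpl22HA/HA mice and the 4 Erbb4 mutant libraries from Lhx6-Cre;Erbb4F/F;Rpl22HA/HA mice, so both groups carried the Cre and the tagged ribosomal protein. Lhx6-Cre is active in the PV and SST interneurons, whose origin is the medial ganglionic eminence (MGE), and there removes Erbb4, a neuregulin receptor, and turns on an HA tag on the ribosomal protein Rpl22. Each library was a biological replicate, by the study's methods. RNA bound to the tagged ribosomes was pulled down with anti-HA beads. No input library and no library without Cre was analysed here, so whether a transcript was enriched or depleted by the pulldown could not be assessed. Whether reads of the 9 came from the tagged ribosomes of interneurons or from other RNA in the preparation could not be assessed either.

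Oligodendrocytes wrap axons in myelin, a stack of membrane that speeds conduction and supports the axon, and in the mouse neocortex they mature over the first postnatal weeks. Their precursors, marked by Pdgfra and Cspg4, leave the cell cycle, pass through a newly formed stage and then switch on the genes of the myelin sheath under transcription factors such as Sox10 and Myrf. Some of these transcripts, Mbp above all, are carried into the myelin processes and translated there. The gene lists used below follow that sequence.

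The 8 libraries held between 51010687 and 80226984 reads, which were recovered from the deposited normalized counts. The library labelled control replicate 1 stood apart in the gene the mutation targets. Erbb4 was at 1640 normalized counts in that library and at 5377, 4306 and 3034 in control replicates 3, 4 and 5, against 1711, 1648, 1233 and 1048 in mutant replicates 2, 3, 4 and 5. It therefore lay within the range of the mutants, and the counts and medians of the lists below are also given without it. The markers of MGE interneurons were present in every library, with the values given below.

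Reads of the 9 transcripts were a small part of each library. They made up 0.861% of the reads in the library labelled control replicate 1 and 0.401%, 0.317% and 0.472% in control replicates 3, 4 and 5. In mutant replicates 2, 3, 4 and 5 they made up 0.334%, 0.284%, 0.379% and 0.452%. Mbp alone supplied between 76.6% and 86.5% of these reads. The lowest value of any of the 9 in any library was 286 normalized counts, for Ermn in mutant replicate 3, so no comparison of theirs rests on a count near 0.

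Per kilobase of the longest annotated transcript, Mbp, which encodes the protein that seals the cytoplasmic faces of compact myelin, had the highest level. Its control mean was 63136 ± 33495 normalized counts per kilobase (SD, n = 4). Mag followed at 7496 ± 2512 and Cnp at 6072 ± 1003 (SD, n = 4 each). Mobp stood at 4219 ± 1695, Mal at 2467 ± 1052 and Mog at 1628 ± 715 on the same scale. Cldn11 at 629 ± 304, Opalin at 207 ± 55.9 and Ermn at 158 ± 44.2 were the lowest. In the controls only the step from Mbp to Mag separated neighbours without overlap, with Mbp at 35128 or more and Mag at 10485 or less, and all other neighbours in the order had overlapping ranges. In the mutants, where the libraries lay closer together, Cnp, at 5564 ± 779, stood above Mag, at 4570 ± 414, with overlapping ranges, and Opalin and Ermn overlapped as well, while the other neighbours were separate. The length of the regions actually counted is not given in the sources used here, so the order holds for this choice of length.

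The promoters were read because the transcripts varied together from library to library, as described further on. The promoter of Mbp was left out of the search, so whether it holds a match was not tested. RefSeq promoter sequences (build GRCm38.p6, from 250 bases before to 50 bases after the start site) were taken for the other 8 genes. These gave 10 windows in all. They were searched on both strands for ACAAAG and ACAATG, 2 spellings of the short core that SOX-family factors, Sox10 among them, are known to recognize. A match was found in 6 windows of 5 genes (Mobp, Opalin, Mag, Cnp and Ermn), and none in those of Mog, Mal and Cldn11. Of all 32851 promoter windows, 28.6% held at least 1 match and 5.59% held 2 or more. The Mobp window held 6, all ACAAAG on the reverse strand, and was the only 1 of the 32851 with that many (0.00304%). Opalin held 2, of which the second lies 23 bases after the start site and is not in the stretch shown. Mag held 1 in each of 2 overlapping windows, which is the same site counted in both. These 3 are shown from 250 to 51 bases before the start site, 5′ to 3′ on the strand of the gene, with the matches in capitals (CTTTGT is ACAAAG read on the other strand). A match describes the letters and does not show that a factor was bound.
Mobp, chr9:120149492-120149691, plus strand: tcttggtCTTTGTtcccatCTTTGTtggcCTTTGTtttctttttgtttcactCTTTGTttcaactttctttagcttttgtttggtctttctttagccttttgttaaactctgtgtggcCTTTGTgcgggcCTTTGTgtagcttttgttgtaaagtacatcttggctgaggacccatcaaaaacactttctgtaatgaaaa
Opalin, chr19:41077164-41077363, minus strand: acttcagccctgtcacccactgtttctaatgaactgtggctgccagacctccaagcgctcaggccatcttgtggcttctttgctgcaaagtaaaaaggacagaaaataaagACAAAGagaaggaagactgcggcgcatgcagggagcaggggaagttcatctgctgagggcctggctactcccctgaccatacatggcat
Mag, chr7:30914973-30915172, minus strand: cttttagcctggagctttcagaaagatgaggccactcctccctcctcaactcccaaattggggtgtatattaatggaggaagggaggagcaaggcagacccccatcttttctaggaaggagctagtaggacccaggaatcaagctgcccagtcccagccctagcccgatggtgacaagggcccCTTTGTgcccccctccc

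The comparison of the genotypes asks how the RNA recovered by the pulldown from the synaptic fraction differs when Erbb4 is lost from MGE interneurons. All 9 myelin transcripts had lower means in the mutants, Cnp except when scaled by read totals. The call used here is an unadjusted p of at most 0.05 with a fold change of at least 1.5, in limma's moderated test on log2(normalized count + 1). Its thresholds are those of the study, which applied them with DESeq2. Of the 9 transcripts, 3 passed the call, Mog, Mag and Opalin. That call took 3.17% of the 31171 genes tested as lower in the mutants and 3.98% as higher. None of the 9 passed an adjusted p of 0.05, which 0.0449% of the genes passed as lower, and the Benjamini-Hochberg adjusted p of the 9 ran from 0.58 to 0.84. The median log2 fold change of the 9 was -0.63, against 0.06 for all genes tested. Fewer oligodendrocyte fragments in the preparation and less RNA per fragment cannot be told apart in such bulk samples. Scaling by the recovered read totals instead of the deposited size factors moved the median of all genes to 0.23 and that of the 9 to -0.45, a difference of -0.68 against -0.69 with the deposited factors. It also moved the calls over all genes from 988 lower and 1241 higher to 415 lower and 2255 higher.

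Mog encodes myelin oligodendrocyte glycoprotein, a surface protein of the outermost myelin membrane (chromosome 17, 37010740 to 37023398, mm10). It was at 4139 normalized counts in the library labelled control replicate 1 and at 3383, 1420 and 2151 in control replicates 3, 4 and 5, against 1358, 1745, 1391 and 1717 in mutant replicates 2, 3, 4 and 5. Control replicate 4 lay among the mutants and the other 3 controls above all of them. Its mean was 2773 ± 1219 in controls and 1553 ± 206 in mutants (SD, n = 4 each), a log2 fold change of -0.73 (SE 0.31), with an adjusted p of 0.58 in limma's test across all genes. An unnamed row of the table lies inside Mog, at 174 and 207 normalized counts in controls and mutants.

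Mag encodes myelin-associated glycoprotein, which sits on the innermost membrane and contacts the axon (chromosome 7, 30899175 to 30914922). Its values were 25520 in the library labelled control replicate 1, 20888, 12056 and 14515 in control replicates 3, 4 and 5, and 10326, 10492, 11138 and 12541 in mutant replicates 2 to 5. The groups overlapped only in control replicate 4, which was below mutant replicate 5. Mag fell from 18244 ± 6114 to 11124 ± 1007 (SD, n = 4 each), a log2 fold change of -0.66 (SE 0.25) with an adjusted p of 0.58 in limma's test.

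Opalin encodes a small transmembrane glycoprotein found in central but not peripheral myelin (chromosome 19, 41061711 to 41077114). It stood at 754 in the library labelled control replicate 1 and at 618, 377 and 559 in control replicates 3, 4 and 5. The mutants stood at 335, 320, 355 and 436, so that again only control replicate 4 was below a mutant library, mutant replicate 5. The means were 577 ± 156 and 361 ± 51.4 (SD, n = 4 each), with a log2 fold change of -0.64 (SE 0.28) and an adjusted p of 0.58 in limma's test.

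Mbp and Mobp, structural proteins of compact myelin, did not pass the call in limma's test. Both passed its thresholds in DESeq2's test on the recovered reads, which called 1573 of the 31171 genes lower. Their log2 fold changes in DESeq2's test were -0.74 and -0.59, with adjusted p of 0.38 and 0.41. Mbp, on chromosome 18, was at 535543 in the library labelled control replicate 1, far above the next library, and at 268287, 168511 and 239104 in control replicates 3, 4 and 5. In mutant replicates 2, 3, 4 and 5 it was at 166680, 141073, 191306 and 218180. Control replicate 4 again lay inside the mutant range. The means were 302861 ± 160677 and 179310 ± 33047 (SD, n = 4 each), with a log2 fold change of -0.64 (SE 0.40) and an adjusted p of 0.60 in limma's test. Its fold change was as large as that of Opalin, and its standard error was larger. Mobp, a small basic protein of compact myelin (chromosome 9, 120149741 to 120181488), was at 21899, 10516, 9744 and 13293 in the controls and at 8688, 7489, 9266 and 10988 in the mutants. Its log2 fold change was -0.54 (SE 0.27, adjusted p = 0.58 in limma's test), and the library labelled control replicate 1 was the only one far above the rest.

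Proteins of the myelin membrane domains and the cytoskeleton made up the rest. Cldn11, the claudin of the tight junctions between myelin layers (chromosome 3, 31149920 to 31164326), was at 1692, 1585, 480 and 947 in the controls and at 710, 856, 596 and 689 in the mutants. Control replicate 4 was the lowest of all 8 libraries for this gene, and the log2 fold change was -0.57 (SE 0.37, adjusted p = 0.61 in limma's test). Ermn, an actin-binding protein of mature oligodendrocytes (chromosome 2, 58045115 to 58052873), was at 746, 653, 376 and 523 in the controls and at 497, 286, 322 and 363 in the mutants. Its log2 fold change was -0.63 (SE 0.30, adjusted p = 0.58 in limma's test), and mutant replicate 2 was the one mutant library above a control. Mal, a proteolipid of lipid-rich membrane domains (chromosome 2, 127633228 to 127656697), was at 10710, 7231, 3827 and 5644 in the controls and at 4967, 6139, 4820 and 4821 in the mutants. Mutant replicate 3 lay apart above the other 3 mutants, the groups overlapped, and the log2 fold change of -0.31 (SE 0.28) had an adjusted p of 0.71 in limma's test.

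Cnp, the phosphodiesterase of the cytoplasmic channels of myelin, had the smallest fold change of the 9 with all 8 libraries (chromosome 11, 100574915 to 100591729). It was at 18411 in the library labelled control replicate 1, at 16894, 14128 and 21101 in control replicates 3, 4 and 5, and at 19442, 15812, 14428 and 14952 in the mutants. The log2 fold change was -0.12 (SE 0.20, adjusted p = 0.84 in limma's test), and with scaling by read totals it was 0.06. Without the library labelled control replicate 1 the fold change of Mal, at -0.06, was smaller than that of Cnp, at -0.10. Cnp shares 154 exon bases with Dnajc7 on the opposite strand, and the library kit is not stated to keep strand, so reads from the shared stretch cannot be assigned. Dnajc7 was at 3891 ± 868 and 3308 ± 273 normalized counts in controls and mutants (SD, n = 4 each). Ermn likewise shares 237 exon bases with Galnt5, which was at 6.62 and 3.28.

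**Figure D1:**
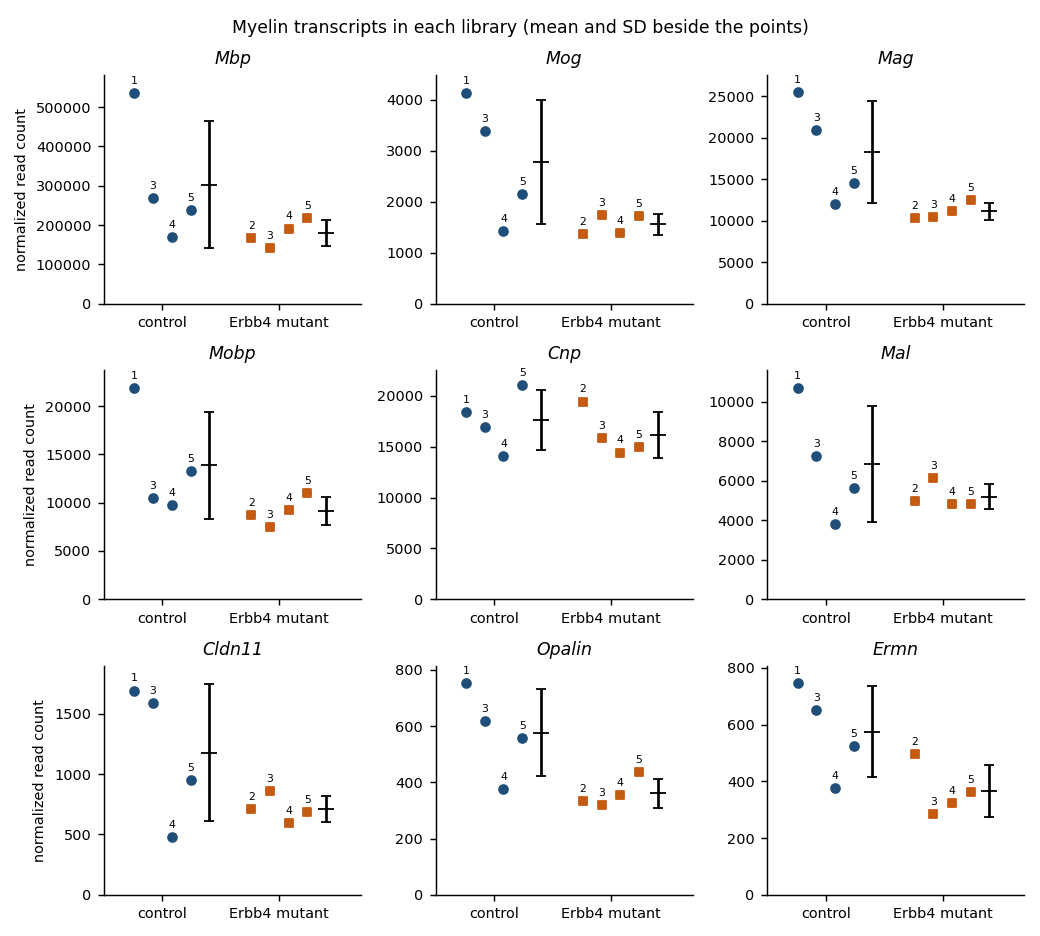
Normalized read count (linear axis from 0) of the 9 myelin transcripts in each library, with controls as blue circles, Erbb4 mutants as orange squares, the replicate number above each point, and the mean and SD (n = 4) as a black bar. The library labelled control replicate 1 is the highest point in 8 of the 9 panels, and control replicate 4 lies within the range of the mutants in 6 panels and below it in 3 (Cnp, Mal and Cldn11).

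The spread between controls was wider than that between mutants for all 9 transcripts. The ratio of the highest to the lowest control ran from 1.49 for Cnp to 3.52 for Cldn11, and that of the mutants from 1.21 for Mag to 1.74 for Ermn. The library labelled control replicate 1 was the highest of the 8 for every transcript but Cnp, for which it was control replicate 5. The lowest was control replicate 4 for 3 transcripts, mutant replicate 2 for 2 and mutant replicate 3 for 4. For none of the 9 did every control exceed every mutant, which 2.17% of the genes tested did.

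The set of calls changed whichever library was left out, and their number ran from 0 to 6. The number moved most without 1 of 2 control libraries. Without the library labelled control replicate 1, no transcript was called (2.06% of genes were called lower) and the median log2 fold change was -0.34. All 9 fold changes were still below 0, from -0.06 for Mal to -0.50 for Mog and Opalin. None of the 9 had all remaining controls above all mutants, against 3.59% of genes. Without control replicate 4, 6 transcripts were called, Mog, Mag, Mobp, Cldn11, Opalin and Ermn, against 4.93% of genes, and the median was -0.83. The remaining controls then exceeded every mutant for Mbp, Mog, Mag, Cldn11, Opalin and Ermn, 6 of 9, against 4.62% of genes. Leaving out a mutant library also moved the set of calls. Only Ermn was called without mutant replicate 2 (3.81% of genes), only Mog without mutant replicate 3 (3.78%) and only Mag without mutant replicate 4 (1.84%), while Mag and Opalin were called without mutant replicate 5 (1.65%). Only Mobp was called without control replicate 3 (1.77%), and Mog and Mag without control replicate 5 (6.35%).

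The difference was larger in the libraries with the numbers 1 to 3 than in those with 4 and 5. The first set holds the library labelled control replicate 1, the highest for 8 of the 9, and the second holds control replicate 4. The study mentions sequencing batches, which the labels do not tie to libraries. Deviations of the libraries from their genotype means correlated weakly between genotypes, from -0.115 to 0.1. The values were above 0 within the numbers 1 to 3 and within 4 and 5, and below 0 across them. Deviations sum to 0 in each genotype, so part of this pattern of signs is fixed by the centring. Between the library labelled control replicate 1 with control replicate 3 and mutant replicates 2 and 3, the median log2 difference of the 9 was -1.06, and all 9 were below 0, from -0.01 for Cnp to -1.31 for Mbp. Between control replicates 4 and 5 and mutant replicates 4 and 5 the median was -0.17, and 7 of the 9 were below 0, with Mbp at 0.03, Mal at 0.05 and Ermn lowest at -0.37. The medians of all genes tested were 0.06 and 0.03. With 2 libraries a genotype on each side these are values without a test, and whether the 2 sets differ was not tested. A fit over all 8 libraries with numbers 1 to 3 against 4 and 5 as a term, chosen after seeing the data, called Mog, Mag, Opalin and Ermn. The same fit called 1821 of the 31171 genes lower, against 988 without the term.

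**Figure D2:**
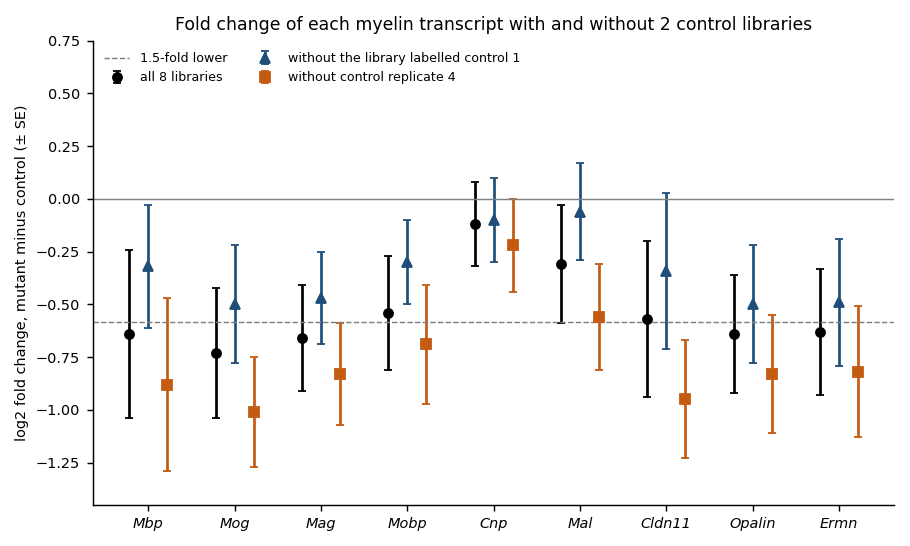
Log2 fold change of each myelin transcript, mutant minus control, with its standard error, from the fit with all 8 libraries (black circles), without the library labelled control replicate 1 (blue triangles) and without control replicate 4 (orange squares); the dashed line marks 1.5-fold lower. Leaving out the first library moves all 9 toward 0 and leaving out the second moves all 9 further below it.

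The 9 transcripts varied together across libraries, apart from Cnp. The median Pearson r over their 36 pairs was 0.81 over the 8 libraries and 0.72 after the mean of each genotype was removed, and the median Spearman rho was 0.68. The highest pair was Mog with Mag at 0.97 and the lowest Mag with Cnp at 0.32. Cnp had a median r of 0.43 with the other 8. Much of this rested on the libraries with the highest myelin levels. Without the library labelled control replicate 1 and control replicate 3, the median r over the other 6 libraries was 0.51 and the median rho 0.40. The libraries share their depth and normalization between genes, so these values are a description.

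Other genes of the myelin sheath, a list of 14, had log2 fold changes below 0 for 12 and above 0 for 2, and 2 passed the call as lower. Gjb1, which encodes the gap junction protein connexin 32, was at 376, 474, 231 and 202 normalized counts in the controls and 185, 103, 127 and 198 in the mutants, a log2 fold change of -1.02 (SE 0.40) without overlap. Omg, an oligodendrocyte glycoprotein that neurons also express, had a log2 fold change of -0.96 (SE 0.40), with 45356 and 41000 in the library labelled control replicate 1 and control replicate 3 and at most 21457 elsewhere. The median of the 14 was -0.56, and without the library labelled control replicate 1 it was -0.35 with 1 gene called.

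Enzymes and carriers of myelin lipid and metabolism, a list of 10, had log2 fold changes below 0 for 9, with a median of -0.29, or -0.17 without the library labelled control replicate 1, where 0 of the 10 were called. Those called were Gal3st1, which makes sulfatide, at 4567 ± 834 in controls and 2989 ± 456 in mutants, and Fa2h, the fatty acid hydroxylase of myelin lipids, at 966 ± 308 and 606 ± 185 (SD, n = 4 each). Ugt8a, which makes the main galactolipid of myelin, was at 2393 ± 583 and 1978 ± 69.9. None of the 8 transcription factors of the lineage was called, and their median was -0.36, or -0.30 without that library. Sox10 was at 1703, 1644, 1547 and 2035 in the controls and 1198, 1124, 1368 and 1506 in the mutants, so that all controls were above all mutants, with a log2 fold change of -0.42 (SE 0.19, adjusted p = 0.58 in limma's test). Myrf, which drives myelin genes in maturing oligodendrocytes, was at 540 ± 237 and 527 ± 137.

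Earlier stages had medians near that of all genes. None of the 8 genes of newly formed oligodendrocytes was called, and their median was -0.04, or -0.06 without the library labelled control replicate 1. Of these 8, 5 had log2 fold changes below 0, and the range ran from -0.43 to 0.46. Gpr17, a receptor of that stage, was at 10679 ± 3743 in controls and 10897 ± 907 in mutants. It was at 5422 in the library labelled control replicate 1 and at 11519, 11482 and 14291 in control replicates 3, 4 and 5. In mutant replicates 2 to 5 Gpr17 was at 9880, 10499, 11234 and 11976. None of the 12 precursor genes was called either, with a median of -0.04, or -0.09 without the library labelled control replicate 1. Of the 12, 8 had log2 fold changes below 0, and the range ran from -0.58 for Cspg5 to 0.82 for Cspg4. Cspg4 was at 378 in the library labelled control replicate 1 and at 1590, 1711 and 1913 in control replicates 3, 4 and 5. In mutant replicates 2 to 5 it was at 2061, 1716, 2302 and 2328. Pdgfra, the growth factor receptor that defines precursors, was at 1330 ± 370 in controls and 1587 ± 472 in mutants (SD, n = 4 each). It was at 814 in the library labelled control replicate 1 and at 1313, 1637 and 1555 in control replicates 3, 4 and 5. In mutant replicates 2 to 5 Pdgfra was at 941, 1544, 1847 and 2014. Whether the fold changes of the myelin and precursor lists differ was not tested. Of 7 genes of peripheral myelin, Pmp2 was at 0 in all 8 libraries and the other 6 were tested, with none called and a median of 0.72, or 0.11 without the library labelled control replicate 1.

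Markers of other cells also differed between the libraries. Of 11 microglial genes, 10 had log2 fold changes below 0 and 1, Siglech, was called, with a median of -0.47, and without the library labelled control replicate 1 the median was -0.24 with 0 called. Their summed level ran from 27701 to 56103 normalized counts in the controls and from 28636 to 33604 in the mutants. The mean centred log2 level of the microglial list was 0.80, 0.45, -0.40 and 0.03 in the controls and -0.23, -0.15, -0.32 and -0.18 in the mutants, beside 0.86, 0.42, -0.38 and 0.17 and then -0.25, -0.32, -0.34 and -0.16 for the 9 myelin transcripts. Both lists were thus highest in the library labelled control replicate 1, and lowest in control replicate 4. Of 11 astrocyte genes none was called and the median was -0.11, or -0.02 without the library labelled control replicate 1, with sums from 182901 to 296171 in controls and 191725 to 207214 in mutants. Their mean centred log2 level was also highest in the library labelled control replicate 1, at 0.29, and lowest in control replicate 4, at -0.24. Its Pearson r with that of the 9 over the 8 libraries was 0.91, beside 0.98 for the microglial, 0.87 for the lipid and 0.73 for the other myelin list.

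The 14 MGE interneuron markers all had log2 fold changes below 0, with a median of -1.03, and 4 were called, Gad1, Gad2, Pvalb and Kcnc1. Without the library labelled control replicate 1 the median was -0.99 and 2 were called. Their sums ran from 86477 to 594589 in the controls and from 34456 to 229751 in the mutants. Their order over libraries differed from that of the myelin transcripts. Their mean centred log2 level was 0.69, 1.5, 0.37 and -0.48 in the controls and 0.21, 0.27, -1.04 and -1.51 in the mutants, so that mutant replicates 4 and 5 and control replicate 5 were the lowest. Of 10 vascular genes, 3 were called higher, Flt1, Tek and Pdgfrb, with a median of 0.37, or 0.31 without the library labelled control replicate 1, and sums from 206398 to 369922 in controls and 287652 to 332964 in mutants. Of 12 genes of excitatory neurons, Neurod6 was called lower, with a median of -0.18, or -0.21 without it, and sums from 141174 to 176575 and from 124983 to 153869. The part of these other cells in the myelin values was not tested.

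**Figure D3:**
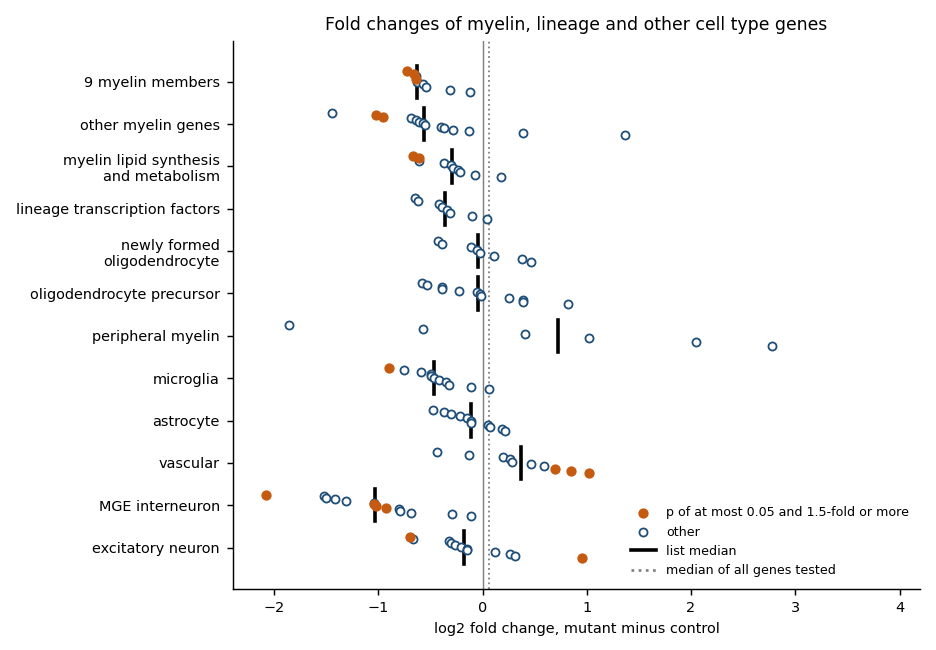
Log2 fold change, mutant minus control, of every tested gene of the myelin, lineage and other cell type lists, with filled orange points for genes that passed an unadjusted p of 0.05 and 1.5-fold, a black bar for the median of each list and a dotted line for the median of all genes tested, 0.06. The medians are -0.63 for the 9 myelin transcripts, -0.56 and -0.29 for the other myelin and lipid lists, -0.04 for newly formed and for precursor genes and 0.72 for peripheral myelin, and in all of these lists but the 9 some genes lie on the other side of 0.

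**Figure D4:**
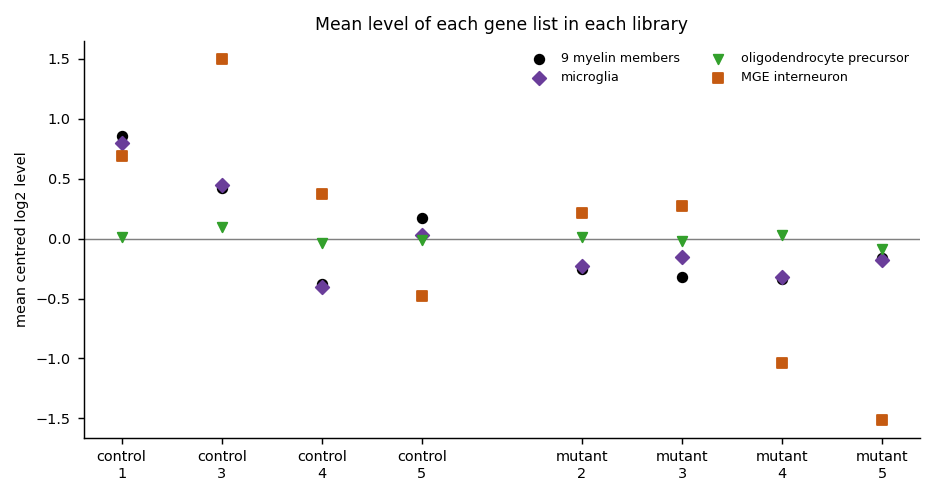
Mean centred log2 level of the 9 myelin transcripts, microglial, precursor and MGE interneuron genes in each library, with the replicate number under each group name. Myelin and microglial points lie close together in every library, precursor points stay between -0.09 and 0.10, and MGE interneuron points spread from -1.51 to 1.5.

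Outside the lists, the 10 genes whose log2 values over the 8 libraries were most like the mean of the 9 myelin transcripts, among 19137 with a mean of at least 100 normalized counts, were H2bc4, Ccdc34, Lsm8, Ramp1, Gm12657, Rps23, Rnf5, Desi1, Cldn10 and Morn2. Their Pearson r was 0.98 for the first 8 and 0.97 for the other 2. An r of at least 0.9 was reached by 411 of the 19137 genes (2.15%), by 5 of the 9 myelin transcripts, which themselves form the profile, by 3 of 12 other myelin genes and by 4 of 11 microglial genes. The longest annotated transcript of the named genes at this r had a median of 1676 bases, against 3524 for all named genes with that mean and 2794 for the 9 myelin transcripts. Lengths were found for 374 of 386 and 13292 of 13762 such genes.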

How the data were processed

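Synaptosomes of mouse neocortex went through an anti-HA pulldown of tagged ribosomes, and SMARTer Ultra Low libraries were made from 1 ng of RNA and sequenced paired-end on an Illumina instrument. The authors aligned reads with STAR 2.4.0 to mm10 and deposited counts over constitutive gene regions (Mouse Fast DB) normalized with DESeq2, and this normalized count is the unit, the signal of a whole read count times a library factor. Every deposited value was a whole multiple of the smallest value above 0 of its library (100% of values, tolerance 0.01 reads), which gave back the reads, between 51010687 and 80226984 a library. Groups came from the labels, 4 control and 4 Erbb4 mutant libraries. Of 56576 genes, 16918 were at 0 in every library and 31171 with a mean of at least 10 in 1 or both genotypes were tested with limma 3.58.1 (R 4.3.3) on log2(value + 1), so fold changes of low genes are understated, with Benjamini-Hochberg adjustment over all genes tested. A call is an unadjusted p of at most 0.05 with a fold change of at least 1.5, the thresholds of the study. The script was tested on simulated counts. Alternatives were other pseudocounts, filters and scalings, edgeR 4.0.16 and DESeq2 1.42.0 on the recovered reads, library weights, the replicate block and leaving out each library.

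The 9 genes and the lists (14 other myelin, 10 lipid and metabolism, 8 transcription factor, 8 newly formed, 12 precursor, 7 peripheral myelin, 11 astrocyte, 11 microglial, 10 vascular, 14 MGE interneuron and 12 excitatory genes) were chosen with earlier results of these data known. Genes named are the 9, list genes that were called or that define a list, Erbb4 as a check, and the 10 genes outside the lists most like the 9 by Pearson r. Cspg5 and the genes that share bases with the 9 were named after their values were seen. Values of some list genes are not reported here. Lengths were taken from GENCODE vM21 and promoters from RefSeq. The study describes 2 sequencing batches, which the labels do not tie to libraries, and a split of the library numbers seen in the data was tried as a term, though whether it is a batch was not tested.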

Additional observations from a re-analysis of the deposited data

Results flagged for a closer look

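In 62 groups of 4 libraries, those of the 9 myelin transcripts and of 22 other genes named in the text, the gap between the highest or lowest library and its nearest neighbour passed Dixon's critical value in 1, where chance gives 3.1 on average. Mal in mutant replicate 3 was at 6139 normalized counts, against 4820 to 4967 in the other 3 mutants, a gap of 0.889 of the range of the group. No other myelin transcript was set apart in that library, and the cause was not tested.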

How the results depend on the processing

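The median log2 fold change of the 9 myelin transcripts was below 0 under every alternative, from -0.83 to -0.34 when 1 library was left out and at -0.27 with library weights. Their number called lower, 3, was 0 with CPM scaling, 0 with library weights and 0 at an adjusted p of 0.05, 5 with DESeq2 (Mbp, Mog, Mag, Mobp and Opalin) and from 0 to 6 when 1 library was left out, the 0 without the library labelled control replicate 1 and the 6 without control replicate 4. Of the 52 other oligodendrocyte lineage genes, 4 were called lower, against 0 with CPM scaling, 9 with DESeq2, 1 with library weights, 9 with the term for numbers 1 to 3 against 4 and 5, 0 at an adjusted p of 0.05 and 0 to 13 when 1 library was left out. Cnp had a log2 fold change of 0.06 with CPM scaling. Over the 180 values of the 9 transcripts under the alternatives, 142 stayed on their side of the threshold, 28 lost the call, 9 gained it and 1 changed sign. The lowest adjusted p under any alternative was 0.13, for Mag with the numbers 1 to 3 against 4 and 5 as a term. Genes called lower over all genes, 988, ranged from 415 with CPM scaling to 1977 without control replicate 5, with 1573 by DESeq2, 1821 with the term for library numbers, 1633 with library weights, 643, 551 and 1537 without the library labelled control replicate 1 and control replicates 3 and 4, and 575 and 515 without mutant replicates 4 and 5. The cause of these shifts was not tested.

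A fit with the replicate number as a replicate block used numbers 3, 4 and 5, which both genotypes have, and called none of the 9 (0, median -0.35), nor did the same 6 libraries without the block, an alternative added after seeing the data (0, median -0.35). The block raised the genes called lower from 744 to 1689. The numbers do not pair the libraries by the labels, and deviations of same-numbered libraries correlated at 0.1, 0.0981 and 0.0823, against -0.115 to 0.0847 for other pairs. Deviations of the library labelled control replicate 1 and of control replicate 3 correlated at 0.0226 to 0.1 with mutant replicates 2 and 3 and at -0.115 to -0.0292 with mutant replicates 4 and 5, and control replicates 4 and 5 had the opposite signs. Because the deviations of a gene sum to 0 in each genotype, values of both signs had to occur, and the opposite signs are not separate evidence of a split.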
